A study of Rattus norvegicus with 52 samples.

Results

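The genes described here encode the ribosomal proteins and the initiation and elongation factors of cytoplasmic translation, together with a few direct regulators of these factors, measured in rat dorsal root ganglia after nerve lesion. They were chosen by symbol alone (Rpl, Rps, Rpsa, Eif1 to Eif6, Eef1 and Eef2, without the Rps6k kinases), with the brightest probe standing for a gene that had several. In all, 99 genes of the 6028 named on the array met this rule: 34 proteins of the large ribosomal subunit, 22 of the small subunit, 36 initiation factors or their regulators and 7 elongation factors or their regulators. Of these genes, 4 carry a pseudogene symbol (Eif3i-ps1, Eif4a2-ps2, Rpl4-ps1 and Rplp0-ps10), and 7 lay in the dimmest 25% of all probes (Eif3a, Eif3m, Eif4a2-ps2, Rpl4-ps1, Rps18, Rps20 and Rps3). A further 8 probes that carry a member's symbol beside another gene's were not used, and Eif5a and Eif6 had no probe of their own.

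The samples were lumbar ganglia (L4, L5 and L6) of rats on two-colour arrays, with 52 hybridisation channels in 16 groups. The lesion groups were SN6h, SN12h, SN24h, SN48h, SN72h, SN7d and SN14d, set against CON(SN), and DR6h, DR12h, DR24h, DR48h, DR72h, DR7d and DR14d, set against CON(DR). What the abbreviations mean is not spelled out in the labels. As the study is known, SN animals had the sciatic nerve lesioned, which holds the peripheral axons of the sensory neurons, and DR animals the dorsal root, which holds their central axons. Strain, sex, age and the treatment of the control animals are not given in the sources used here. Each group was 1 RNA pool of 3 animals hybridised repeatedly, with 5 channels in DR12h, 4 in DR6h and in DR48h and 3 in every other group. The p-values of channels therefore cover only the spread between hybridisations of a pool, and the animals cannot be told apart from the lesion. The number of arrays limits the precision. All 7 times of a lesion share 1 control pool, so its error moves all of them together.

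Translation starts when initiation factors place the small ribosomal subunit and the initiator tRNA on the start codon of an mRNA. eIF4E binds the cap of the mRNA and is held back by the 4E-binding proteins, eIF2 brings the initiator tRNA and is recharged by eIF2B, and the eIF2 kinases slow this recharging under stress. eEF1A then delivers the aminoacyl-tRNAs and eEF2 moves the ribosome along. Mammalian ribosomal protein mRNAs, and those of several translation factors, start with a run of pyrimidines through which the mTOR pathway controls their translation. Sensory neurons translate mRNAs in the cell body and in the axon, and local translation, mTOR activity among its controls, is known to take part in axon regrowth.

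The start regions of 7 members are shown because a pyrimidine run at the start is what many genes of translation are known to share. These members are among those called below. The sequences are RefSeq's (GRCr8), run from 40 bases before the first transcribed base to 20 bases from it on. They carry in capitals the longest run of at least 6 C or T that reaches within 10 bases of the start. A counted run may begin further upstream, as that of Rpl21 does at -25, so not every run lies at the start of the mRNA. The table matched 84 of the 99 members, 3 of them with several promoters; Rpl27 and Eif4ebp1 were not matched.
Rpl31 (chr9:49143071-49143130, plus strand): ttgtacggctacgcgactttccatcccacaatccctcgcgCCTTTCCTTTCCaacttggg
Rpl14 (chr8:129163580-129163639, plus strand): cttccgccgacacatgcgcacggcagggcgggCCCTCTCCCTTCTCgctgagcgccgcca
Rpl22 (chr5:168117921-168117980, plus strand): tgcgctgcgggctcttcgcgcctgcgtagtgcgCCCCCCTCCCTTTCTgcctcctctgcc
Rpl10 (chrX:157205810-157205869, plus strand): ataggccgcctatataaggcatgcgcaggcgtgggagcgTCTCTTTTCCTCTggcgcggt
Eef1a1 (chr8:88225050-88225109, minus strand): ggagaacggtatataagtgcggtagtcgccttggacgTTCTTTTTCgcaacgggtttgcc
Rpl41 (chr7:1563478-1563537, minus strand): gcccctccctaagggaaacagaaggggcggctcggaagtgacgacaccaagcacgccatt
Eif3c (chr1:190583048-190583107, minus strand): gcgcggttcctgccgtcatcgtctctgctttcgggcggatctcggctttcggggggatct
Rpl31, Rpl14, Rpl22 and Rpl10 had runs of 12, 14, 15 and 13 pyrimidines and Eef1a1 one of 9. Rpl41 and Eif3c had no run of at least 6 that reached within 10 bases of the start. Of the called members not shown here, Rps19, Rpl18 and Eif1b had no such run either. Rps24, Rpl4, Rps21, Rps9, Rps27 and Eif2b5 had runs of 17, 14, 10, 9, 9 and 6. A run was present in 36 of 48 ribosomal protein promoters (75%), in 9 of 33 of initiation factors (27.3%) and in 3 of 6 of elongation factors (50%), against 28.3% of all 33469 promoters of the table. The letters CCGGAAG, a core that ETS factors bind, were searched on both strands of the 300 bases that begin 250 bases before the start. They were present in 13 of 48 promoters of ribosomal proteins (27.1%), in 14 of 33 of initiation factors (42.4%) and in 0 of 6 of elongation factors, against 8.7% of all promoters.

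The values of each channel are the authors' normalised intensities, and each change below is a log2 difference between a lesion group and its control from limma's fit with group and dye as terms, ± its standard error. A gene was called over a course when the moderated F test over its 7 times had an adjusted p below 0.05 and any time reached 1.5-fold. The authors' deposited table of log2 coefficients against their time zero is given as a second source wherever it is named. Sums of marker genes changed beside the members: 4 of 7 macrophage markers rose over each course, and 6 of 8 neutrophil and mast cell markers fell over the SN course and 7 of 8 over the DR course. Of the fibroblast markers 4 of 4 rose over the DR course and 0 over the SN course, and of the red cell markers 2 of 3 fell over the DR course and 1 of 3 over the SN course. Per channel the macrophage markers summed to 3904 to 8684 in SN channels, against 3885 to 4206 in CON(SN), and to 4237 to 7343 in DR channels, against 3581 to 5628 in CON(DR). Of 16 sensory neuron markers 15 were measured, none in the dimmest 25%, and they summed to 161996 to 233507 in SN channels, against 180436 to 192738 in CON(SN), and to 162471 to 238264 in DR channels, against 188720 to 218915 in CON(DR). The fibroblast markers summed to 2489 to 6797 in DR channels, against 2535 to 3185 in CON(DR), and the red cell markers to 3713 to 13732 in DR channels, against 8364 to 10978 in CON(DR). Fewer cells of a type and less RNA per cell cannot be told apart in such samples, and the part of these cells in the results below was not tested.

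After the SN lesion the ribosomal proteins were slightly higher as a group. Their median change was 0.12, 0.10, 0.12, 0.23, 0.22, 0.06 and 0.18 on the log2 scale at 6, 12, 24, 48 and 72 h and at 7 and 14 d. The median of all probes lay between -0.01 and 0.01. Of the 56 ribosomal proteins, 42, 39, 45, 47, 48, 35 and 48 lay above their control at these times, or 62.5% to 85.7%, against 48% to 52% of all probes. Every SN channel stood above every CON(SN) channel in the median deviation of the 56 genes from their 52-channel mean, with 0.05 to 0.34 in SN channels and -0.02 to 0.00 in CON(SN). In the authors' deposited table the medians were 0.16, 0.09, 0.14, 0.22, 0.25, 0.11 and 0.15. A group of 234 other probes whose mean intensity was at or above that of the median ribosomal protein had medians of -0.05 to 0.00 in the fit. In the large subunit the median of the genes' mean changes was 0.14, in the small subunit 0.15. Of the 56 genes, 24 lay above CON(SN) at all 7 times (42.9%), against 9.3% of all probes, and 0 lay below at all 7. The authors' deposited table had 21 above (37.5%), against 15.6% of all probes, and 0 below.

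**Figure D1:**
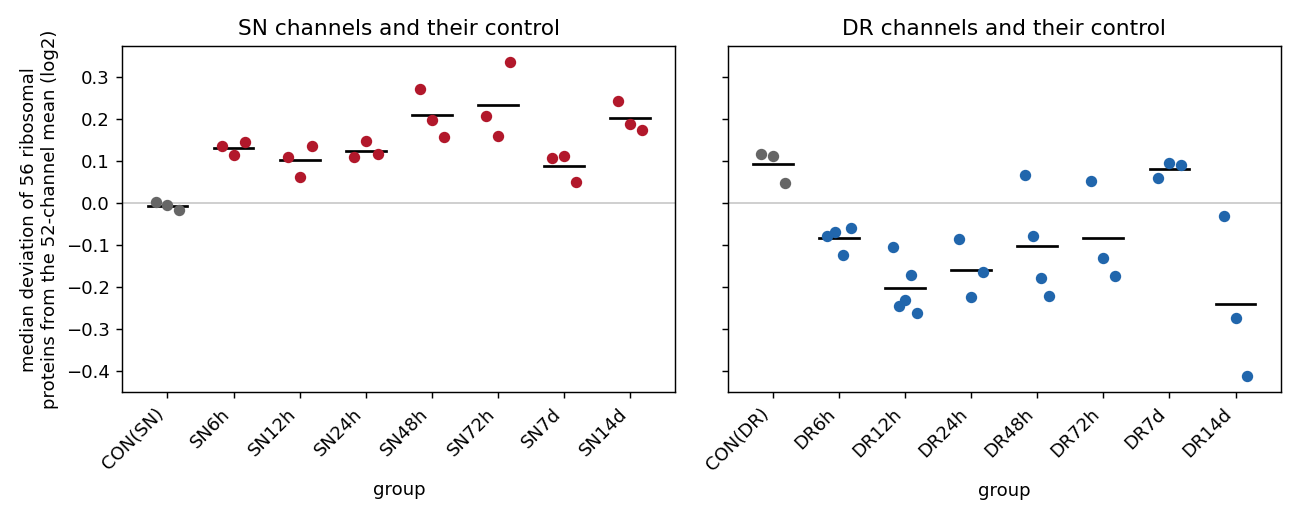
Each point is 1 channel, and its height is the median, over the 56 ribosomal proteins, of the log2 deviation from the gene's mean over the 52 channels; the bar is the mean of a group's channels, with controls in grey. The SN channels sit between 0.05 and 0.34, all above the 3 CON(SN) channels, and DR12h channels sit between -0.26 and -0.11, below the CON(DR) channels at 0.05 to 0.12.

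Of all probes 4.93% were called over the SN course (2.99% higher and 1.94% lower). Of the 99 members only 4 were called, or 4.04%, all higher. They were 2 ribosomal proteins of the large subunit, Rpl31 and Rpl41, a subunit of the scaffold that holds initiation together on the small ribosomal subunit, Eif3c, and the 4E-binding protein Eif4ebp1. Leaving out CON(SN) 1 lowered the count to 2. At single times 6 of 693 tests of members called a rise (0.866%) and 1 a fall, against 0.671% and 0.39% of the tests of all probes, and the 6 were rises of these 4 genes at 48 or 72 h. Without SN48h 1 there were 3 such calls in place of 7. Larger differences were not called where channels were scattered. Rpl11 had a log2 level of 12.43 in SN6h, against 10.96 in CON(SN), whose channels had a mean of 2928 and a standard deviation of 2125. Rps16 had 13.71 in SN7d, against 12.67 in CON(SN). In the authors' deposited table these changes were 0.325 and 0.204.

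Rpl31 had 4976, 4971 and 5359 in SN6h, 3397, 4979 and 4536 in SN12h, 3957, 4419 and 4649 in SN24h, 6248, 5132 and 4786 in SN48h, 5420, 5279 and 5764 in SN72h, 4143, 4540 and 4136 in SN7d and 4787, 4786 and 5006 in SN14d, against 3693, 3297 and 3465 in CON(SN). Only SN12h overlapped its control; the other 6 groups lay wholly above it. The largest change was 0.70 ± 0.14 at 72 h (adjusted p = 0.0118 over the course), where the authors' deposited table has 0.58. The mean of the 7 changes was 0.49 ± 0.11 (adjusted p = 0.00863), a test of means that 2 members and 1.29% of all probes passed. Without CON(SN) 2 the course test no longer passed (adjusted p = 0.0562).

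Rpl41, one of the shortest proteins known, had 27910, 24364 and 25375 in SN48h and 25854, 26614 and 25935 in SN72h, against 16527, 18164 and 16425 in CON(SN). These channels lay wholly above the control, as did 23918, 21720 and 20240 in SN6h, whereas by SN7d, at 16044, 19024 and 18749, the groups overlapped. The change was 0.67 ± 0.15 at 72 h (adjusted p = 0.00499 over the course) and 0.51 in the authors' deposited table.

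Eif3c had 4837, 5177 and 5102 in SN48h and 4056, 5532 and 4637 in SN72h, against 3368, 3966 and 3093 in CON(SN). The groups did not overlap at these times and overlapped at the other 5, and the change at 48 h was 0.61 ± 0.16 (adjusted p = 0.0138 over the course; 0.49 in the authors' deposited table). Eif4ebp1, which blocks eIF4E when mTOR is inactive, had 315, 314 and 248 in SN48h and 225, 307 and 317 in SN72h, against 203, 238 and 173 in CON(SN). At 12 h it lay at 171, 177 and 156, overlapping the control's lowest channel, so the gene was highest at 48 h with 0.62 ± 0.15 (adjusted p = 0.000224 over the course; 0.41 in the authors' deposited table). Both calls ended without CON(SN) 1, where the largest changes were 0.56 for Eif3c and 0.57 for Eif4ebp1, under the fold limit; Eif3c also lost its call without SN48h 3 (0.57) and Eif4ebp1 without SN48h 1 (0.51). With no dye term neither was called (0.54 and 0.52). Eif3c has 3 probes, and its call rests on the brightest: the other 2 had 0.21 ± 0.38 and 0.27 ± 0.22 at 48 h and did not pass over the course (adjusted p = 1 and 0.302), and the mean over the probes had 0.36 (adjusted p = 0.676).

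**Figure D2:**
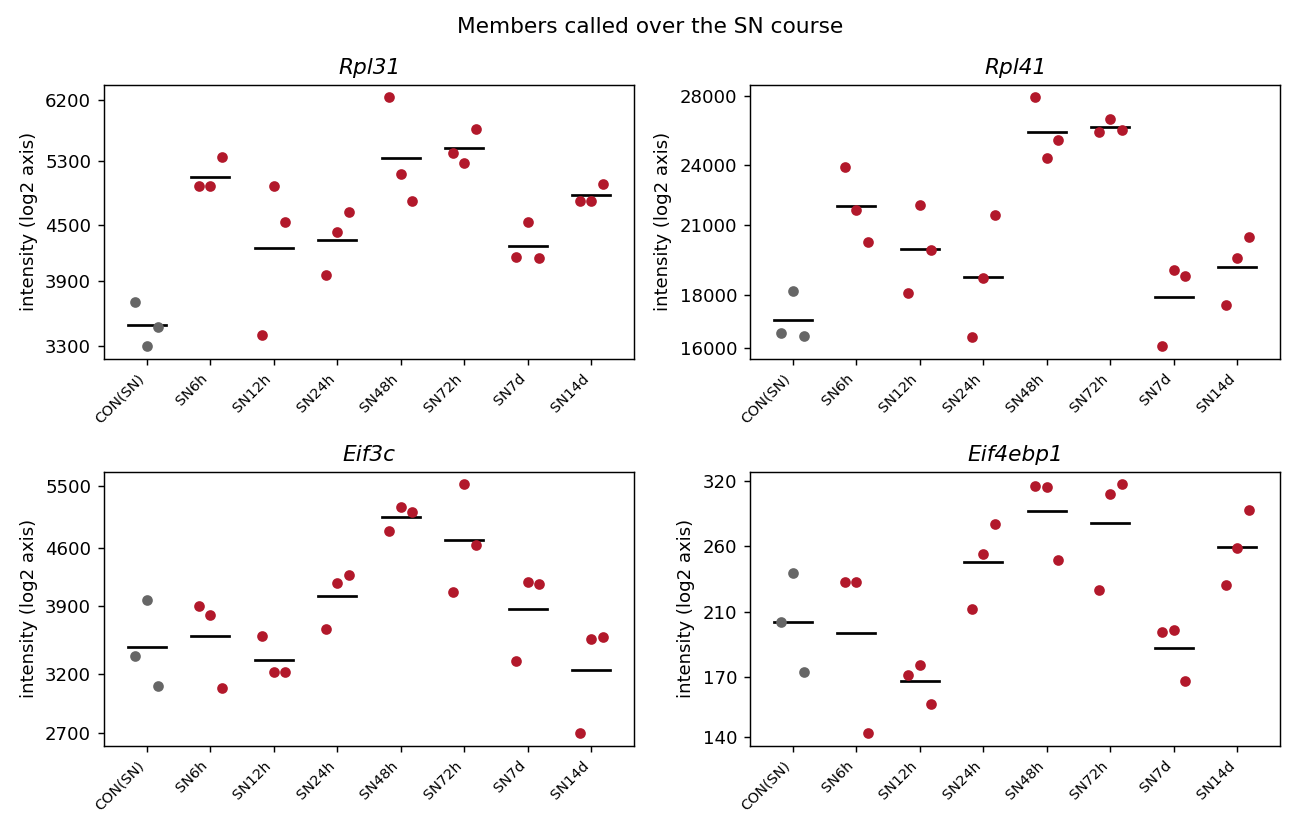
Each panel shows 1 gene's normalised intensity per channel on a log2 axis, for CON(SN) in grey and the 7 SN times; bars are geometric means of a group. Rpl31 lies above its control at every time but 12 h, and Rpl41, Eif3c and Eif4ebp1 are highest at 48 and 72 h.

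The initiation factors as a group did not follow the ribosomal proteins: their median SN change ran from -0.05 to 0.11, and 14 to 26 of 36 lay above CON(SN). Eif2b1, a subunit of the eIF2 recharging complex, had 845, 803 and 747 in SN6h and 837, 804 and 705 in SN48h, against 628, 574 and 530 in CON(SN). Its mean change over the 7 times was 0.37 ± 0.10 (adjusted p = 0.0417), although no time reached 1.5-fold. Eif2b2, of the same complex, was the 1 member called lower at a single time, at 14 d (-0.59, adjusted p = 0.0235). Of the other regulators, the eIF2 kinase Eif2ak3 changed by at most 0.43 ± 0.23 (24 h), the eIF2 subunit Eif2s1 by 0.25 ± 0.26 (48 h) and the scaffold Eif4g1 by 0.30 ± 0.20 (7 d), and none passed the test. The cap-binding Eif4e had 362, 545 and 511 in SN72h, against 701, 744 and 495 in CON(SN), a change of -0.47 ± 0.19 whose course did not pass (adjusted p = 0.0869).

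Among ribosomal proteins often taken as references or antibody targets, Rplp0 of the stalk had 4573 in CON(SN) 2, against 11349 and 9658 in the group's other channels. Its largest change, 0.65 ± 0.24 at 7 d, did not pass (adjusted p = 0.191 over the course). Rpsa changed by at most 0.30 ± 0.15 and Rps6, the substrate of the S6 kinases, by 0.36 ± 0.14 (72 h), with adjusted p of 0.764 and 0.219 over the course. Of the elongation factors, Eef1a1, which delivers aminoacyl-tRNA in most cells, had 4548, 7948 and 5867 in SN72h and 9794, 11676 and 11491 in SN7d, against 8168, 10011 and 7851 in CON(SN). It lay wholly below the control from 6 to 48 h, and its course passed the F test (adjusted p = 0.0236) with a largest change of -0.50 ± 0.18, under the fold limit. In the authors' deposited table the largest change of Eef1a1 after SN was a rise, 0.75 at 7 d, after -0.66 at 72 h. Eef1a2, the close paralogue found in neurons and muscle, changed by -0.40 ± 0.16 at 6 h and did not pass (adjusted p = 0.245); hybridisation of a paralogue's or pseudogene's RNA to a member's probe was not tested. Eef2 had 0.47 ± 0.17 at 7 d (adjusted p = 0.0657) and its kinase Eef2k 0.09 ± 0.20 at 12 h.

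After the DR lesion the 2 sources gave different sizes. In the channel fit the ribosomal proteins were lower, with medians of -0.17, -0.36, -0.24, -0.25, -0.22, -0.07 and -0.34 at 6, 12, 24, 48 and 72 h and at 7 and 14 d. At these times 14, 9, 8, 17, 15, 24 and 17 of the 56 lay above CON(DR), or 14.3% to 42.9%, against 47.3% to 54% of all probes and 32.1% to 50.9% of the other bright probes. In the authors' deposited table the medians were -0.06, -0.08, -0.07, -0.03, -0.03, 0.00 and -0.05, and 19, 17, 18, 24, 25, 29 and 22 lay above 0. The 234 other bright probes had -0.19 to 0.01 in the channel fit and 0.00 to 0.04 in the authors' deposited table. Of the 56 genes 22 lay below CON(DR) at all 7 times (39.3%), against 29.9% of the other bright probes and 17.9% of all probes. The authors' deposited table had 17 (30.4%), against 19.2% and 18.6%. The difference in size between the sources was not tested.

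**Figure D3:**
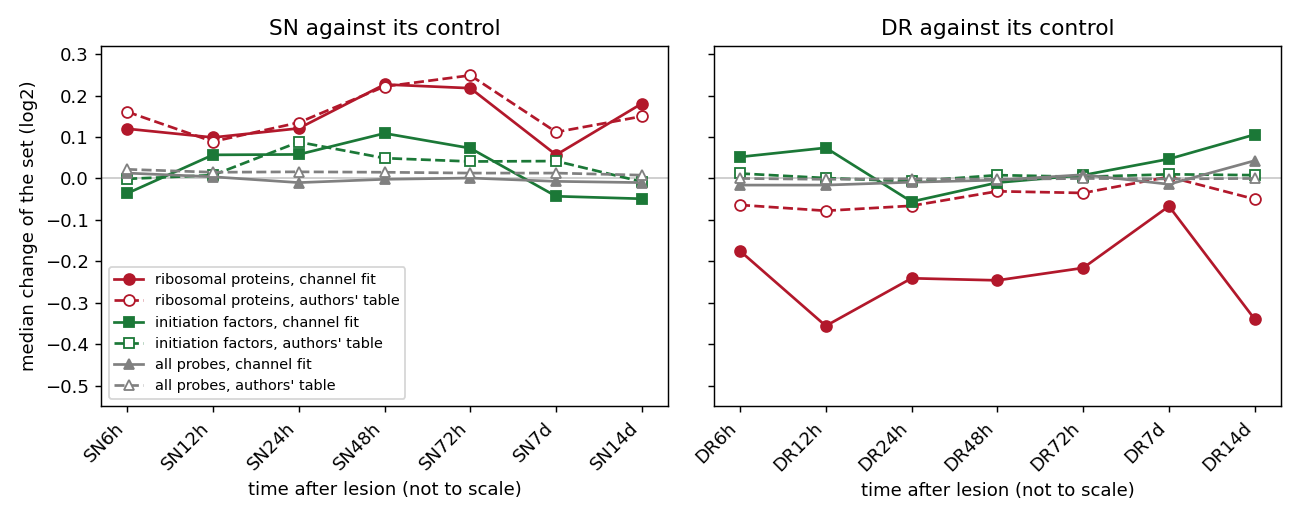
Lines join the median log2 change of the 56 ribosomal proteins, the 36 initiation factors and all 8455 probes at each time against the lesion's control, filled for the channel fit and open for the authors' deposited table. For SN the 2 sources run close together above 0 for ribosomal proteins; for DR the channel fit reaches -0.36 where the authors' deposited table has -0.08.

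Of the 99 members 15 were called over the DR course (15.2%), 2 higher and 13 lower, against 7.81% of all probes (5.05% higher and 2.76% lower). Of the 234 other bright probes 12 were called higher and 22 lower. At single times 38 of 693 tests of members called a fall (5.48%) and 7 a rise (1.01%), against 1.67% and 2.29% of the tests of all probes. At the 7 times falls were called for 5, 4, 2, 7, 4, 1 and 15 members. Of the 234 other bright probes they were called for 7, 11, 2, 17, 5, 3 and 41. Without CON(DR) 1 there were 23 calls of members in place of 45. The mean over the 7 times passed its test for 13 members, 2 higher and 11 lower, against 6.62% of all probes. Of the 234 other bright probes 10 passed it higher and 22 lower. The authors' deposited table had the same sign at the largest change for all 15, but only 1 of them, Eef1a1, passed 1.5-fold there. The count rested on few channels: it was 7 without CON(DR) 1, 8 without CON(DR) 2, DR7d 2 or DR14d 2, 9 without DR6h 1, DR7d 1 or DR14d 3, and 25 without DR14d 1. DR14d 2, DR14d 3, DR48h 4 and DR72h 3 stood apart at the low end of the first principal component of all probes, and without them together 8 members were called (Eef1a1, Rps27, Eef1d, Rpl27, Rpl14, Rpl10, Rps9 and Rps21). DR7d 1 and SN6h 3 stood apart at its high end. Without all 6 channels 8 members were again called, with Rpl22 in place of Rpl10 (adjusted p = 0.0507), and Eef1a1 was still called, with 1.33 at 7 d. Fitted on the DR channels alone, only Eef1a1 was called.

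Eef1a1 had 8882, 11310, 8363 and 9191 in DR6h, 10315, 9719 and 8457 in DR24h, 7659, 9121, 6386 and 13717 in DR48h, 10118, 8749 and 12259 in DR72h, 14931, 18468 and 14050 in DR7d and 9693, 12699 and 11584 in DR14d, against 6053, 6603 and 6484 in CON(DR). The 5 channels of DR12h spanned 9900 to 10033. Of the 7 times only 48 h overlapped the control, and DR7d was the highest pool. The change at 7 d was 1.30 ± 0.18 (adjusted p = 0.000433 over the course and 6.58e-06 at that time) and 0.85 in the authors' deposited table. The mean over the 7 times was 0.71 ± 0.14 (adjusted p = 0.000768). The call held in each of the 52 fits that left out 1 channel, with 1.17 to 1.42. Eef2 was also higher at 7 d, with 2814, 3683 and 3405 in DR7d, against 1632, 2160 and 2343 in CON(DR). The change was 0.70 ± 0.17 (adjusted p = 0.0109 at that time and 0.108 over the course), but 0.13 in the authors' deposited table.

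Rps27, a zinc-binding protein of the small subunit, was the other member called higher. It had 10289, 8589, 6378 and 6919 in DR6h, against 5899, 4118 and 4656 in CON(DR), and by DR14d the values, 5670, 5154 and 4454, overlapped the control. The change at 6 h was 0.71 ± 0.19 (adjusted p = 0.00741 over the course) and 0.19 in the authors' deposited table; without DR6h 1 it was 0.57, under the fold limit.

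Of the 13 members called lower, Rpl27, Rps19, Rpl14, Rpl22, Rpl10, Eif1b and Eif2b5 had means of -0.52 to -0.24 over the 7 times in the authors' deposited table, and Rps9, Rps21, Rps24, Rpl18, Rpl4 and Eef1d means of -0.14 to 0.04. Rpl27, a protein of the large subunit, had 5363, 6100 and 5685 in DR7d and 5261, 3456 and 4208 in DR14d, against 12043, 10682 and 5767 in CON(DR). CON(DR) 3, hybridised in the other dye from CON(DR) 1 and 2, lay near the lesion values, so that the groups overlapped at 6 h, 48 h and 7 d. The change was -1.09 ± 0.20 at 14 d (adjusted p = 0.00421 over the course) and -0.46 in the authors' deposited table, and it was -0.62 without the 4 channels that stood apart. Without CON(DR) 1 the course did not pass (adjusted p = 0.0612).

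Rps19, a small subunit protein whose loss causes a human anaemia, had 7344, 4241 and 5153 in DR14d, against 16996, 14956 and 8615 in CON(DR). Its channels lay wholly below the control at 6 h, 72 h and 14 d, and the change at 14 d was -1.26 ± 0.23 (adjusted p = 0.0131 over the course; -0.47 in the authors' deposited table). Without the 4 channels that stood apart it was -0.60, and the course did not pass (adjusted p = 0.0699). It also did not pass without CON(DR) 1, CON(DR) 2 or DR14d 2 (adjusted p = 0.0779, 0.0572 and 0.0521).

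Rpl14, of the large subunit, had 7029, 5837, 7607 and 7772 in DR6h, 7464, 6501 and 6347 in DR24h, 6002, 6926, 3416 and 4451 in DR48h, 7437, 5439 and 4513 in DR72h, 6814, 6800 and 7453 in DR7d and 7195, 3642 and 3509 in DR14d, against 8097, 7612 and 9667 in CON(DR). All groups from 12 h on lay wholly below the control, and only 6 h overlapped it. The change was -0.90 ± 0.18 at 14 d (adjusted p = 0.00627 over the course), -0.44 in the authors' deposited table and -0.36 without the 4 channels that stood apart. The call held in each of the 52 fits that left out 1 channel.

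Rpl22 had 1328, 1340 and 1811 in DR24h, against 3347, 2970 and 1727 in CON(DR), and overlapped its control at every time. Its change at 24 h was -0.68 ± 0.17 (adjusted p = 0.0485 over the course; -0.49 in the authors' deposited table). Eif1b, a close relative of the start codon factor eIF1, had 2087, 2386, 1836 and 1744 in DR48h, against 3901, 6019 and 2816 in CON(DR), and lay wholly below the control at that time alone. The change was -0.99 ± 0.24 (adjusted p = 0.0446 over the course; -0.38 in the authors' deposited table). Eif2b5, the catalytic subunit of eIF2B, had 367, 411, 339 and 404 in DR48h, against 798, 578 and 445 in CON(DR), also without overlap, with -0.65 ± 0.16 (adjusted p = 0.0281; -0.33 in the authors' deposited table). Without the 4 channels that stood apart these courses did not pass (adjusted p = 0.0544, 0.0851 and 0.0838 for Rpl22, Eif1b and Eif2b5). The Rpl22 and Eif1b calls ended in 37 and 33 of the 52 fits that left out 1 channel. That of Eif2b5 ended without CON(DR) 1, CON(DR) 2 or DR14d 2 (adjusted p = 0.0726, 0.055 and 0.0526).

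Rpl10, a protein that joins the large subunit late in its assembly, had 2625, 1234 and 995 in DR14d, against 2783, 3002 and 3617 in CON(DR). The last 2 of these DR14d channels were among those that stood apart, and the change of -1.08 ± 0.25 (adjusted p = 0.0368 over the course) was -0.31 without them. Its channels also lay below the control at 6, 12, 24 and 72 h, as 1703, 1789, 2105 and 1843 in DR6h show. Rps9 likewise had 4342 in DR14d 1, against 1247 and 1342 in the same group's other channels, with 4113, 4899 and 5725 in CON(DR). Its change was -1.33 ± 0.32 with, and -0.27 without, the channels that stood apart (-0.07 in the authors' deposited table). Rps21 had -0.97 ± 0.25 at 72 h, and Rps24 -0.69 ± 0.18 and Rpl18 -0.63 ± 0.21 at 14 d, with adjusted p of 0.0214, 0.0437 and 0.0314 over the course; without those channels they were -0.70, -0.16 and -0.17. Rpl4 had -0.61 ± 0.22 at 48 h (adjusted p = 0.0459), and its call ended in 39 of the 52 fits that left out 1 channel. For Rps24, Rpl10, Rps9, Rpl18 and Rps21 this was so in 27, 8, 6, 6 and 2 of these fits, the one without CON(DR) 2 among them for the last 4.

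Eef1d, the nucleotide exchange subunit of the eEF1 complex, had 2069, 1854, 2088 and 2187 in DR6h and 2379, 1992 and 2469 in DR24h, against 3281, 3689 and 2739 in CON(DR). It lay wholly below the control from 6 to 72 h, with -0.64 ± 0.13 at 6 h (adjusted p = 0.0249 over the course) and -0.17 in the authors' deposited table. The course did not pass without CON(DR) 1 or CON(DR) 2 (adjusted p = 0.0776 and 0.134). Among the remaining named factors, Rps6 had 9975, 9490 and 7183 in DR14d, against 13386, 14142 and 11492 in CON(DR). Its mean over the 7 times was -0.40 ± 0.11 (adjusted p = 0.0161), with -0.20 in the authors' deposited table. The mean of Eif4ebp1 was 0.39 (adjusted p = 0.0307; 0.17 in the authors' deposited table). Rplp0 and Rpsa did not pass over the DR course (adjusted p = 0.499 and 0.0656), nor did Eef1a2, Eef2k, Eif4e, Eif4g1, Eif2s1 or Eif2ak3.

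**Figure D4:**
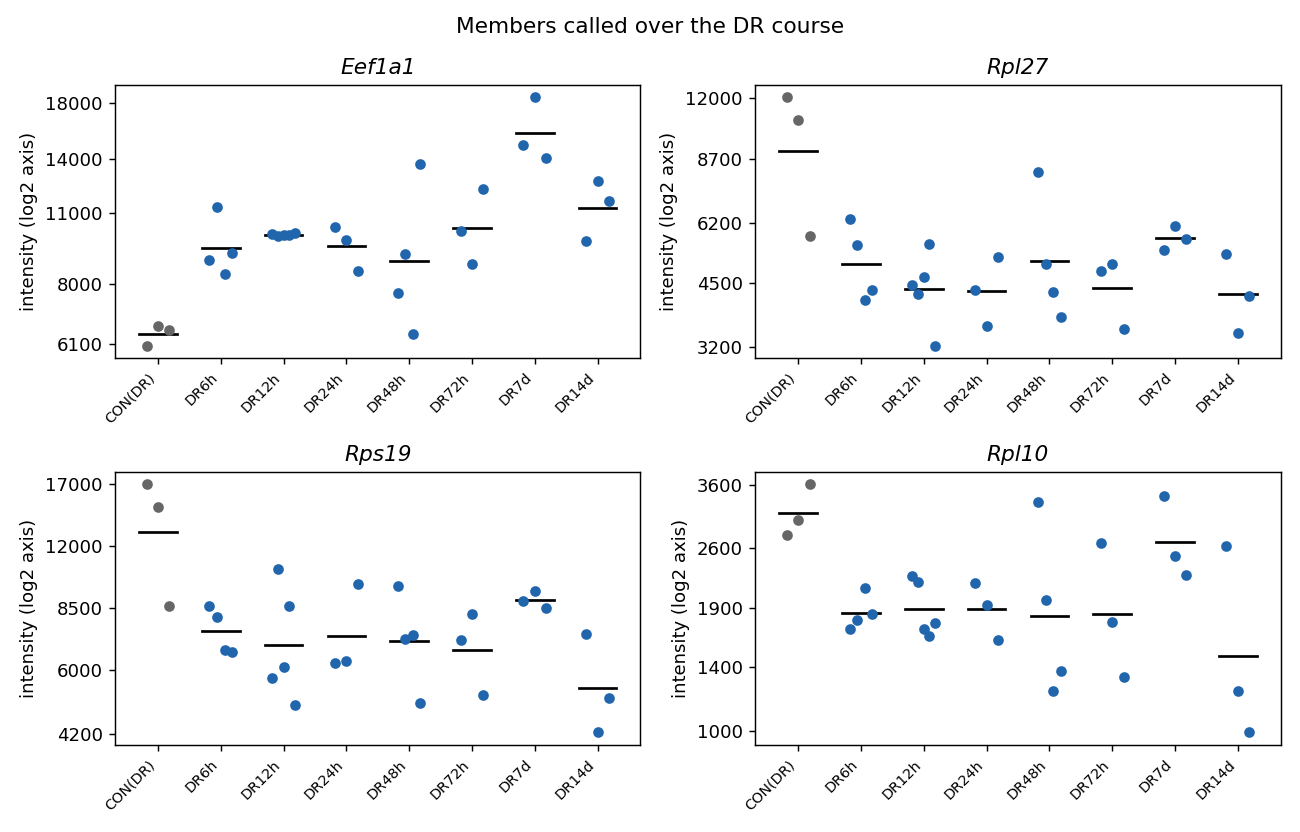
Each panel shows 1 gene's normalised intensity per channel on a log2 axis, for CON(DR) in grey and the 7 DR times; bars are geometric means of a group. Eef1a1 is highest at 7 d, CON(DR) 3 of Rpl27 and of Rps19 lies near the DR values, and 1 channel of Rpl10 in DR14d lies well above the group's other 2.

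The difference between the courses, each lesion against its own control, passed the test for 7 members, against 4.26% of all probes. Rpl31, Eef1d, Rpl37a, Rps24 and Eif3c had the higher mean change after SN than after DR, and Eif3d and Eif4ebp1 the lower one. For Eif3d the sources had opposite signs, with -0.16 ± 0.23 in the fit and 0.31 in the authors' deposited table. Its DR14d channels were scattered, with a mean of 855.3 and a standard deviation of 479.4. The mean SN change minus the mean DR change was 0.73 ± 0.15 for Rpl31 (adjusted p = 0.00731), 0.68 ± 0.15 for Eef1d (adjusted p = 0.0358) and 0.53 ± 0.19 for Rpl37a (adjusted p = 0.0419). Rpl31 had 3498, 2851 and 2523 in DR14d, against 3351, 3381 and 4155 in CON(DR), a course that passed the F test (adjusted p = 0.0257) with a largest change of -0.43, under the fold limit. Eef1a1 moved opposite ways on average (-0.96 ± 0.20), but the test of its difference did not pass (adjusted p = 0.0593). At 7 d its pool lay above the control after both lesions. The authors' deposited table has 0.75 for SN and 0.85 for DR at that time. The count was 22 without DR14d 1, 12 without DR72h 3, 4 without CON(SN) 1, CON(SN) 2, SN6h 1 or SN14d 1, and 3 without SN48h 1 or SN7d 3.

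**Figure D5:**
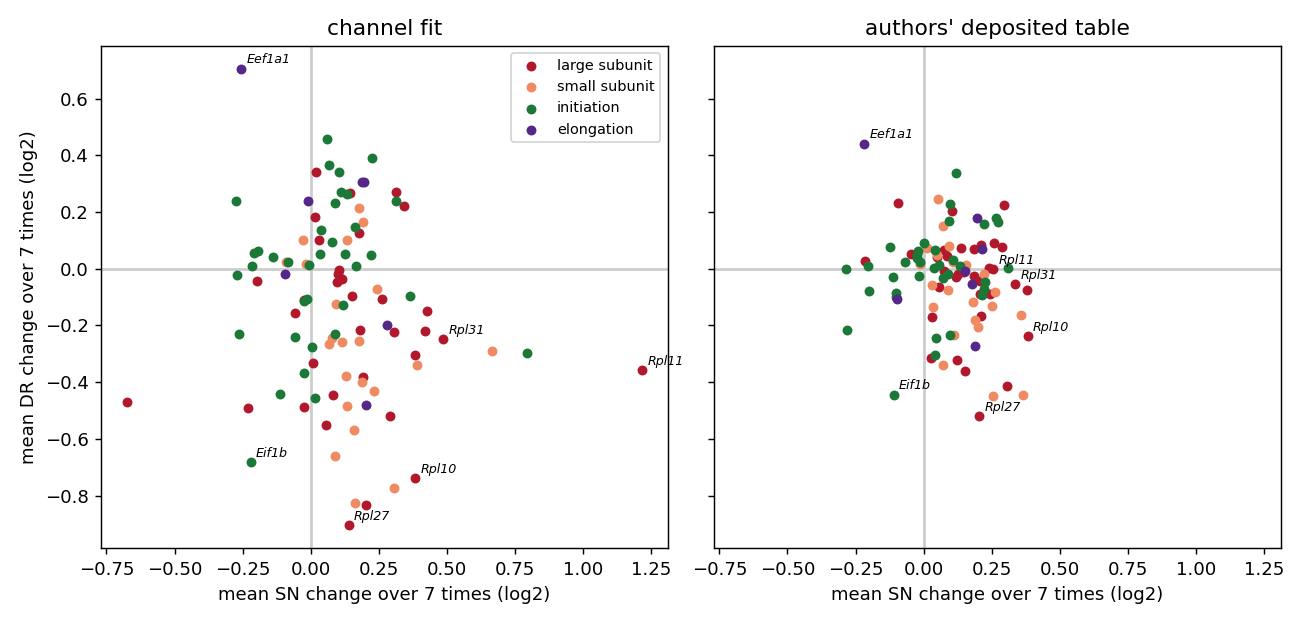
Each point is 1 of the 99 members, with the mean of its 7 SN changes on the x axis and of its 7 DR changes on the y axis, both log2 against the lesion's own control, for the channel fit and for the authors' deposited table. Most ribosomal proteins lie right of 0 in both panels, Eef1a1 lies at the upper left in both, and the spread along y is smaller in the authors' deposited table.

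Between pools at the same time, without their controls, SN and DR differed for 46 members: 42 were higher in SN and 4 lower (Eef1a1, Eef1a2, Eif4e and Eif3b), against 12.6% and 11.5% of all probes. The 42 held 27 of the 56 ribosomal proteins, or 48.2%, against 29.9% of the other bright probes; 0 ribosomal proteins were lower in SN by the test, against 18.4% of the other bright probes. The SN and DR groups were hybridised on separate sets of arrays, so a difference between sets of arrays cannot be told apart from one between lesions. The control pools themselves differed by a median of -0.11 over the ribosomal proteins, CON(SN) minus CON(DR), opposite to the lesion pools' 0.25. Rpl34, Rps13, Rpl10 and Rps9 had the largest positive differences, 1.01 ± 0.20, 0.86 ± 0.11, 0.81 ± 0.09 and 0.81 ± 0.11 (adjusted p = 0.00528, 0.000497, 0.000259 and 0.000571). SN was higher at 6 of 7 times for Rpl34 and at all 7 for the other 3. Next came Rpl14 (0.72), Rpl18 (0.67), Rps21 (0.63), Rpl31 (0.63), Eif3c (0.61) and Eif2b3 (0.59), each higher in SN at all 7 times. CON(SN) minus CON(DR) was 0.11, -0.02, -0.12, -0.10, 0.44 and 0.89 for them, so for Eif2b3 the controls differed more than the lesion pools. The mean SN change minus the mean DR change in the authors' deposited table was 0.34, 0.33, 0.09, 0.39, 0.27 and 0.08. In the authors' deposited table the mean SN change exceeded the mean DR change by 0.38, 0.38, 0.62 and 0.34 for Rpl34, Rps13, Rpl10 and Rps9. Eef1a1 was lower in SN at all 7 times, with -0.56 ± 0.07 (adjusted p = 0.000313), while its CON(SN) pool was higher than its CON(DR) pool by 0.41. For Eef1a2, Eif4e and Eif3b the lesion pools differed by -0.461, -0.407 and -0.235. Their control pools differed the same way, by -0.382, -0.151 and -0.306. In the authors' deposited table the mean SN change minus the mean DR change was 0.007, -0.213 and -0.085 for these 3.

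All 14 lesion pools together against the 2 control pools gave 0 called members by limma, but also 0 called among all 8455 probes. The 0 is therefore no result about the members. At an unadjusted p below 0.05, 2 members were higher and 2 lower (2.02% each), against 3.1% and 3.95% of all probes. Later pools (48 h to 14 d) against earlier ones (6 to 24 h) also gave 0 called members by limma, against 0.0591% of all probes, with 10 higher and 3 lower (10.1% and 3.03%) at that unadjusted limit, against 6.6% and 5.83% of all probes. The lowest p among the members was that of Rpl22 (0.23 ± 0.06, adjusted p = 0.26).

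Over the 16 pools the ribosomal proteins were only loosely tied to each other, with a median pairwise correlation of 0.19. It was 0.15 between initiation factors and 0.11 between the groups. With the mean of each series removed it was 0.241 between ribosomal proteins, 0.076 between initiation factors and 0.015 between the groups. By these last medians ribosomal proteins were tied more closely to each other than initiation factors were, a difference that was not tested. The pools share arrays, dyes and normalisation. The members with the highest median correlation to the other ribosomal proteins were Rps3a (0.68), Rpl31 (0.63), Rps13 (0.62), Rps12 (0.62) and Rpl18 (0.60), and these were 0.45 to 0.51 with the mean of each series removed.

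By complex, changes of the initiation factors were small. The 11 eIF3 members, the pseudogene Eif3i-ps1 among them, had a median mean change of 0.03 after SN and 0.04 after DR, with 1 call (Eif3c after SN). The 5 eIF2B subunits had 0.07 and -0.23, with 1 call (Eif2b5 after DR), and medians of 0.10 and -0.21 in the authors' deposited table. The 3 eIF2 subunits had -0.21 and 0.06 and the 4 eIF2 kinases 0.10 and 0.14, with 0 calls, and the 7 cap-binding and helicase factors of eIF4 0.04 and 0.14, also with 0. The 3 genes of eIF1 and eIF1A had the lowest medians, -0.221 and -0.275, with 1 call (Eif1b after DR). Their medians in the authors' deposited table were -0.11 and -0.001.

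Of 81 other genes of the pathway 5 were called over the SN course and 5 over the DR course (6.17% each), against 4.93% and 7.81% of all probes. Of 20 mitochondrial ribosomal proteins 1 fell over the SN course (Mrpl49, a dim probe) and 1 over the DR course (Mrpl48, -0.78 ± 0.18 at 7 d). None of 17 ribosome biogenesis genes, 7 nascent chain factors and 2 genes of termination and tail binding was called. Of 11 tRNA synthetases Nars1 fell after SN (-0.71 ± 0.32 at 6 h). Aars1 and Gars1 fell after DR (-1.34 ± 0.21 at 14 d and -0.60 ± 0.22 at 12 h), although the authors' deposited table has 0.04 for Aars1 at that time. Of 14 genes of the mTOR and S6 kinase pathway, Mlst8, a subunit shared by both mTOR complexes, fell after SN (-0.68 ± 0.17 at 48 h). Ddit4, an mTOR inhibitor induced by stress, fell after DR (-0.75 ± 0.23 at 24 h) and Rps6ka5 rose after DR (1.17 ± 0.25 at 6 h). Of 10 genes downstream of eIF2 phosphorylation, Ppp1r15a, which directs its dephosphorylation, rose after SN (0.81 ± 0.27 at 12 h) and the amino acid transporter Slc7a5 fell (-0.78 ± 0.19 at 6 h). The fixed list of ribosomal proteins with other symbols had 0 members measured.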

How the data were processed

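The authors deposited linear intensities per channel, normalised, from 9 to 90077; the method and any background correction are not given in the sources used here. The authors also deposited log2 coefficients against their time zero with standard errors; the submitters' processing notes name limma for these, without a version. The 2 channels of an array were not matched to each other here.

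The intensities were put on the log2 scale as they stood, without a pseudocount or another normalisation. The annotation listed 7075 of 8455 probes; 168 had several genes and 1380 were not listed. limma 3.58.1 (R 4.3.3) was fitted to all 52 channels and all 8455 probes with group and dye as terms, and p-values were adjusted by Benjamini-Hochberg over every probe of a contrast. F tests over the 7 times and over the 7 differences between lesions, tests of single times, and fits on dye-adjusted pool means were used. The limits were an adjusted p of 0.05 and, for courses and single times, 1.5-fold. The planned model allowed log2 or linear values, and the linear case applied. The code was tested on simulated data. Dim probes were kept.

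The members and lists were chosen with earlier results of these data known. Named genes were those called in a course, course difference or pool test (at most 10 with the largest rise and 10 with the largest fall in each), a fixed list of known factors, and the members most correlated with the ribosomal proteins. Genes singled out beyond this rule (Eif2b2 at 1 time, for example) were chosen after their values were seen. The alternatives were quantile normalisation, a pseudocount of 50, no dye term, no dim probes, means over the probes of a gene, array weights, a replicate block, no fold limit, channels left out, each lesion alone, and the authors' deposited coefficients.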

Additional observations from a re-analysis of the deposited data

Results flagged for a closer look

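Dixon's test was run on 67 sets of values, most of called members and the rest of the ribosomal protein median, and it set 5 apart. Chance alone sets about 1 in 20 apart where sets are not chosen by their values. The members here were called for a large change at some time, so that rate need not hold and the 5 are a description. In DR6h, Rpl18 had 11.11 (log2 intensity) in channel 2, against 11.61 to 11.65 in the others. In DR48h, Rpl4 had 11.28 in channel 2, against 10.8 to 10.83 in the others. Among the 7 DR pools, Eef1a1 stood high at 7 d with 13.95, against 13.11 to 13.47 at the other times, and so did Rpl10 at 7 d with 11.4, against 10.55 to 10.87. Rps19 stood low at 14 d with 12.36, against 12.77 to 13.07.

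The courses of 7 members differed between the lesions by the interaction test. The mean SN change minus the mean DR change (log2) was 0.73 for Rpl31, 0.68 for Eef1d, 0.53 for Rpl37a, 0.33 for Rps24, 0.17 for Eif3c, -0.16 for Eif3d and -0.17 for Eif4ebp1. In the authors' deposited table that of Eif3d was 0.31, of opposite sign. For Eif3c, Eif3d and Eif4ebp1 the mean difference was no larger than its standard error or little above it, and the test covers the differences at all 7 times jointly.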

How the results depend on the processing

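No member called over a course changed direction at its largest change under the alternatives run. For single members the direction of the course difference was not followed. That of Eif3d was 0.308 in the authors' deposited coefficients, against -0.162 in the fit. The DR median of initiation factors, near 0, was -0.001 without CON(DR) 3, against 0.032 in the fit. The SN course count of 4 was 2 with no dye term and 7 with no fold limit; the DR course count of 15 was 8 with no dye term, 8 without the 4 DR channels that stand apart, 8 also without DR7d 1 and SN6h 3 (an alternative chosen after seeing the data) and 1 with its own lesion's channels alone. Single-time calls were 4 with quantile normalisation for SN (7 in the fit), and 8 with own channels alone for DR (45 in the fit). With the authors' coefficients and standard errors, an alternative chosen after seeing the data, they were 0 for SN and 2 for DR (Eef1a1 at 7 d and Rpl27 at 12 h), and the DR median of ribosomal proteins was -0.027 with the authors' coefficients, against -0.233 in the fit. The course difference count of 7 was 3 with quantile normalisation, 14 with a pseudocount of 50, 2 with no dye term, 12 without dim probes (fewer probes tested), 40 with array weights and 12 with a replicate block. Replicate numbers do not pair the channels (median residual correlation 0.002 at the same number, -0.012 at different numbers), and the block moved no other count by over 1.5 times. Leaving out channels or pools gave 2 to 6 for the SN course, 7 to 25 for the DR course, 3 to 9 and 23 to 63 for SN and DR single times, 3 to 22 for the course difference, 0 to 1 for lesion against control pools, 0 for later against earlier pools and 34 to 48 for SN against DR pools. The same left-out fits gave medians of 0.121 to 0.155 (SN) and -0.249 to -0.193 (DR) for ribosomal proteins, and 0.02 to 0.072 and -0.001 to 0.065 for initiation factors. Where no other reason is named, the cause was not tested.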
